A study of Mus musculus with 16 samples.

Results

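Igf2bp1, Igf2bp2 and Igf2bp3 encode the 3 insulin-like growth factor 2 mRNA-binding proteins, and their loci were described here by the histone marks listed over them. The members were all peaks overlapping the windows chr11:95810000-95875000 (Igf2bp1), chr16:22050000-22170000 (Igf2bp2) and chr6:49030000-49180000 (Igf2bp3) of the mouse build mm9. They came to 206 of the 289751 peaks in all lists, 64 at Igf2bp1, 70 at Igf2bp2 and 72 at Igf2bp3. The loci were chosen by differences seen in these same peak lists, so the values below are a description of them and carry no test. The cells were murine mesenchymal stem cells (MSCs), stromal cells of adult tissue, kept as monoclonal immortalized lines of the strain C57BL/6. The group called WT had the genotype Dicer f/f, in which Dicer was floxed but intact, and the group called KO had the genotype Dicer -/-. The deletion and the floxed allele were the only treatments or alleles that the labels gave, and no time or age was given. H3K4me3, H3K36me3 and H3K27me3 were each measured by ChIP-seq in 2 libraries per genotype, which made 12 ChIP libraries beside 4 whole-cell extract samples.

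Every ChIP library came as a list of peaks called against whole-cell extract and as a difference list, whose control was read as the matching library of the other genotype. Separate cultures or clones are not stated for the replicates, so their spread may be technical. A difference between genotypes and a difference between monoclonal lines cannot be told apart in this design. With 2 libraries against 2, no exact two-sided permutation test could give a p below 0.333. Lists against extract held 12744 to 23851 peaks for H3K4me3, 33417 to 38683 for H3K36me3 and 706 to 17516 for H3K27me3. The shortest of all was H3K27me3 KO replicate 1, which covered 0.732 Mb, against 34.4 Mb in KO replicate 2, 4.67 Mb in WT replicate 1 and 37.9 Mb in WT replicate 2. Read depth was unknown. The marker genes of MSCs were not checked here, because no annotation in mm9 coordinates was used.

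The IGF2BP proteins bind messenger RNAs in the cytoplasm and affect their stability, transport and translation. Igf2bp1 and Igf2bp3 are known as oncofetal genes, active in the embryo, low in most adult tissues and active again in many tumours, whereas Igf2bp2 stays expressed in a wider range of adult tissues. All are known targets of let-7, a microRNA family that rises as tissues mature and that needs Dicer to be cut from its precursors. Among the marks, H3K4me3 lies at the promoters of active and poised genes, H3K36me3 is laid down along the bodies of transcribed genes, and H3K27me3 is the mark of Polycomb repressive complex 2.

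The series title names let-7, so its mature forms are shown first, since they are what the KO cells cannot cut in the usual way. The RefSeq table (GRCm38.p6) held 11 mature sequences of the family, miR-98 included. Of these, 10 shared the seed, bases 2 to 8 from the 5′ end, by which a microRNA pairs with its targets. The shared seed was GAGGUAG, and that of let-7j was GAGGUAU. Examples follow with the seed in capitals.
let-7a-5p: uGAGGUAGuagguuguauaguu
let-7d-5p: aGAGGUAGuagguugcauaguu
let-7g-5p: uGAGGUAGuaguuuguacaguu
miR-98-5p: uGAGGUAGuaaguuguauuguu
let-7j: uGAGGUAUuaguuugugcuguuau
These microRNAs were not measured in the files used here, and no target site was read from the genes' messenger RNAs.

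The promoters are shown because the widest H3K4me3 region of each window overlapped WT H3K27me3, and because CG-rich promoters are known as places where these marks can meet. RefSeq held start sites for Igf2bp2 and Igf2bp3, and puts both genes on the minus strand. Igf2bp1 was matched to no promoter. The 250 bases before each start are printed 5′ to 3′ on the gene's strand with every CG in capitals. Their positions are in GRCm38.p6, chr16:22163300-22163549 for Igf2bp2 and chr6:49214955-49215204 for Igf2bp3, and cannot be set against the mm9 peaks.
Igf2bp2: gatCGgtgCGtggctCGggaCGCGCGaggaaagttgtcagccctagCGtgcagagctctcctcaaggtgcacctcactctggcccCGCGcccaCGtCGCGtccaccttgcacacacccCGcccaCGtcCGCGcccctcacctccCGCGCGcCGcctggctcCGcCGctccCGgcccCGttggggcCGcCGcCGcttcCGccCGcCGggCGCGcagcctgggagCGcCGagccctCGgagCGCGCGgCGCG
Igf2bp3: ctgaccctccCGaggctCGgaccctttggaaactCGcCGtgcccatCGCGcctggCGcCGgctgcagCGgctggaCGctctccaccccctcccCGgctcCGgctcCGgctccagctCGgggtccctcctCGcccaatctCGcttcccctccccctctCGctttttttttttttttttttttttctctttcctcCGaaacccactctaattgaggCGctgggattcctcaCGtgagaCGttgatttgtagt
The Igf2bp2 stretch held 40 CG dinucleotides at 77.2% G and C, and 1.31% of the 32851 RefSeq promoter stretches of this length held as many. The Igf2bp3 stretch held 21 at 60.4%, a number reached by 16.3% of them, and the median over all was 6. Both promoters were thus richer in CG than the median, and Igf2bp2 stood near the upper end.

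H3K4me3 covered more of every window in both KO libraries than in either WT library. At Igf2bp1 it covered 5816 bp (replicate 1) and 13903 bp (replicate 2) in KO, against 1456 and 1908 bp in WT, in the same order. The groups did not overlap, with a mean of 9859.5 ± 5718.4 bp in KO and 1682.0 ± 319.6 bp in WT (SD, n = 2 each). Igf2bp2 had 4718 and 12602 bp in KO, while WT replicate 1 had 0 bp and WT replicate 2 had 2467 bp. Their means were 8660.0 ± 5574.8 and 1233.5 ± 1744.4 bp (SD, n = 2 each). At Igf2bp3 the lengths were 5354 and 13059 bp in KO against 0 and 3380 bp in WT, with means of 9206.5 ± 5448.3 and 1690.0 ± 2390.0 bp. WT replicate 1 therefore listed no H3K4me3 at Igf2bp2 or Igf2bp3, and KO replicate 2 was the highest library at each locus. Replicate 2 exceeded replicate 1 within both genotypes at all 3 loci, as its lists did in total length. The KO lists were also the longer ones within each replicate number, at 32.2 and 52.7 Mb against 25.0 and 44.1 Mb in WT. Scaled to the mean list length, the mean differences were 6601.4, 6345.7 and 6493.7 bp at Igf2bp1, Igf2bp2 and Igf2bp3, and the groups stayed apart. Without KO replicate 2 the mean difference fell from 8177.5 to 4134.0 bp at Igf2bp1, from 7426.5 to 3484.5 bp at Igf2bp2 and from 7516.5 to 3664.0 bp at Igf2bp3. Without KO replicate 1 it was 12221.0, 11368.5 and 11369.0 bp. As a background, H3K4me3 was covered longer in both KO libraries in 4.65% of 65 kb tiles of chromosomes 1 to 19 and X, in 6.13% of 120 kb tiles and in 6.69% of 150 kb tiles. These tiles have the lengths of the Igf2bp1, Igf2bp2 and Igf2bp3 windows. The loci were chosen from this contrast, so nothing is read from the comparison. A longer covered length may mean more cells with the mark or more of the mark per cell. It may also come from a library's depth or enrichment, and the lists cannot tell these apart.

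Within the windows most H3K4me3 lay in a broad region towards the high-coordinate end. At Igf2bp1 this was chr11:95861252-95869755, with 3392 and 8504 bp of peaks in KO against 0 and 1156 bp in WT. At Igf2bp2 it was chr16:22158086-22164816, with 4718 and 6731 bp in KO against 0 and 2467 bp in WT. At Igf2bp3 it was chr6:49159107-49169040, with 5354 and 9934 bp in KO against 0 and 1836 bp in WT. All 3 regions were thus absent from WT replicate 1 and listed in part in WT replicate 2. Since RefSeq puts Igf2bp2 and Igf2bp3 on the minus strand, the high-coordinate end is the side on which these genes begin. The KO replicate 2 peaks were wide for their list, as only 0.416% of its peaks were as wide as the Igf2bp1 peak, 1.16% as wide as the Igf2bp2 peak and 0.193%, or 46 peaks, as wide as the Igf2bp3 peak. Their authors' score was 3100, which 43.9% of that list reached, so the score set them less apart than the width. In WT replicate 2 the peaks in these places had scores of 214.85 at Igf2bp1, 1213.63 at Igf2bp2, and 95.6 and 171.87 at Igf2bp3. Of that list, 85.2%, 64.9%, 97.4% and 88.3% of peaks scored at least as high, so the WT peaks at Igf2bp1 and Igf2bp3 were among the weaker ones.

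Igf2bp1 had H3K4me3 at a second place in every library. The region chr11:95841672-95844981 held 2424 and 3310 bp in KO against 1456 and 752 bp in WT. It was the only H3K4me3 region of the 3 windows listed in all 4 libraries, and the WT peaks in it were shorter than either KO peak. Between it and the broad region, chr11:95848739-95850827 was listed in KO replicate 2 alone, over 2089 bp, while the KO replicate 1 difference list had a peak of 1292 bp there. Igf2bp2 had 2 further regions beside its broad one, of 4471 and 1400 bp, both listed only in KO replicate 2. At Igf2bp3 a small region near the other end of the window, chr6:49046315-49048162, was listed in KO replicate 2 over 1848 bp and in WT replicate 2 over 1544 bp. Against extract that region was thus listed in replicate 2 of both genotypes, and the KO replicate 1 difference list also had a peak of 1247 bp there.

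**Figure D1:**
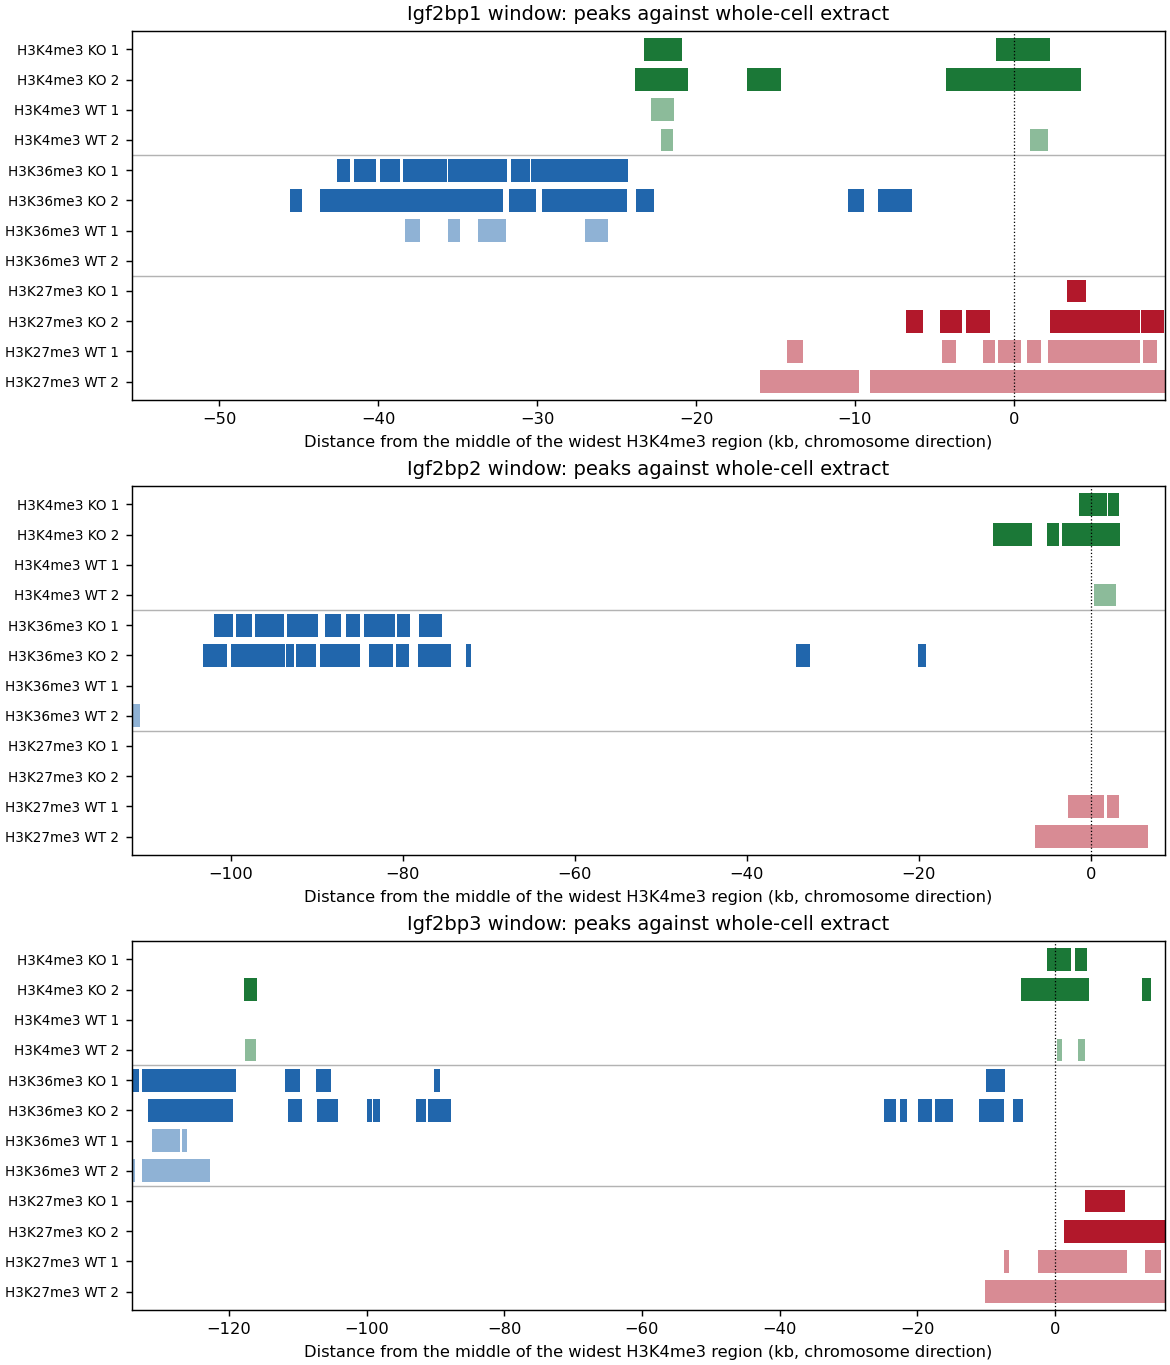
Peaks against whole-cell extract in the Igf2bp1, Igf2bp2 and Igf2bp3 windows, 1 row per library (green H3K4me3, blue H3K36me3, red H3K27me3, full colour KO, pale WT). The horizontal axis is the distance in kb from the middle of the widest H3K4me3 region, in chromosome direction. KO H3K4me3 lies around 0, KO H3K36me3 to its left, and WT H3K27me3 across 0 at all 3 loci.

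H3K36me3, the mark of transcribed gene bodies, showed the widest gap in bp between the genotypes. Igf2bp2 had 22359 and 27891 bp of it in KO against 0 and 884 bp in WT. The single WT peak lay at the very edge of the window, chr16:22050005-22050888, where neither KO library had a peak. The means were 25125.0 ± 3911.7 bp in KO and 442.0 ± 625.1 bp in WT (SD, n = 2 each). Igf2bp1 had 17238 and 23625 bp in KO against 4832 and 0 bp in WT, with means of 20431.5 ± 4516.3 and 2416.0 ± 3416.7 bp (SD, n = 2 each). Here WT replicate 2, whose list covered the greater length (177 Mb against 108 Mb), was the one without a peak. Igf2bp3 had 22588 and 36716 bp in KO against 4657 and 10307 bp in WT, with means of 29652.0 ± 9990.0 and 7482.0 ± 3995.2 bp. KO lay above WT at each locus although the WT H3K36me3 lists were the longer ones within each replicate number, at 108 and 177 Mb against 87.0 and 110 Mb in KO. The background share of tiles with longer H3K36me3 in both KO libraries was 0.715% at 65 kb, 0.851% at 120 kb and 0.984% at 150 kb. Tiles with longer H3K36me3 in both WT libraries made up 8.81%, 11.5% and 12.7%.

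The H3K36me3 peaks fell into blocks on the low-coordinate side of the broad H3K4me3 region. Peaks less than 5 kb apart were joined for this description. At Igf2bp2 a block of 31.1 kb, chr16:22058303-22089416, held all 22359 bp of KO replicate 1 and 25375 bp of KO replicate 2, and no WT peak. It lay near the far end of the window. In KO replicate 1 the nearest H3K36me3 peak against extract was 72041 bp from the H3K4me3 region. At Igf2bp1 the main block, chr11:95819950-95842863, held 17238 and 20483 bp in KO against 4832 and 0 bp in WT. At Igf2bp1 and Igf2bp2 most H3K36me3 thus lay at the end of the window away from the broad H3K4me3 region. Outside these blocks KO replicate 1 had no peak against extract. KO replicate 2 had 3142 bp at Igf2bp1 and 2 regions of 1653 and 863 bp at Igf2bp2. The KO replicate 1 difference list had a peak of 844 bp within that 1653 bp region. At Igf2bp2 this difference list also had peaks of 703 and 951 bp nearer the broad H3K4me3 region. At Igf2bp1 the nearest H3K36me3 peak was 20049 bp from the broad H3K4me3 region in KO replicate 1 and 2137 bp in KO replicate 2. Igf2bp3 had H3K36me3 close to its broad H3K4me3 region in both KO libraries, though most of it lay in blocks farther away. Its block chr6:49139276-49159460 held 2837 and 12496 bp in KO and no WT peak. In KO replicate 1 it ended 2220 bp short of the H3K4me3 region, and in KO replicate 2 it reached 354 bp into it.

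Part of the Igf2bp3 H3K36me3 was common to both genotypes. In the first 20 kb of the window the KO libraries had 14542 and 12320 bp against 4657 and 10307 bp in WT, and no difference list had an H3K36me3 peak there. The remaining window held 8046 and 24396 bp in the KO libraries and none in WT. All WT H3K36me3 at Igf2bp3 therefore lay in the first 20 kb. RefSeq lists Malsu1 as the coding neighbour on that side, overlapping Igf2bp3, so the gene to which this block belongs cannot be told from the lists. The neighbours of the others were B4galnt2 and Gip for Igf2bp1, and Senp2 and Tra2b for Igf2bp2.

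**Figure D2:**
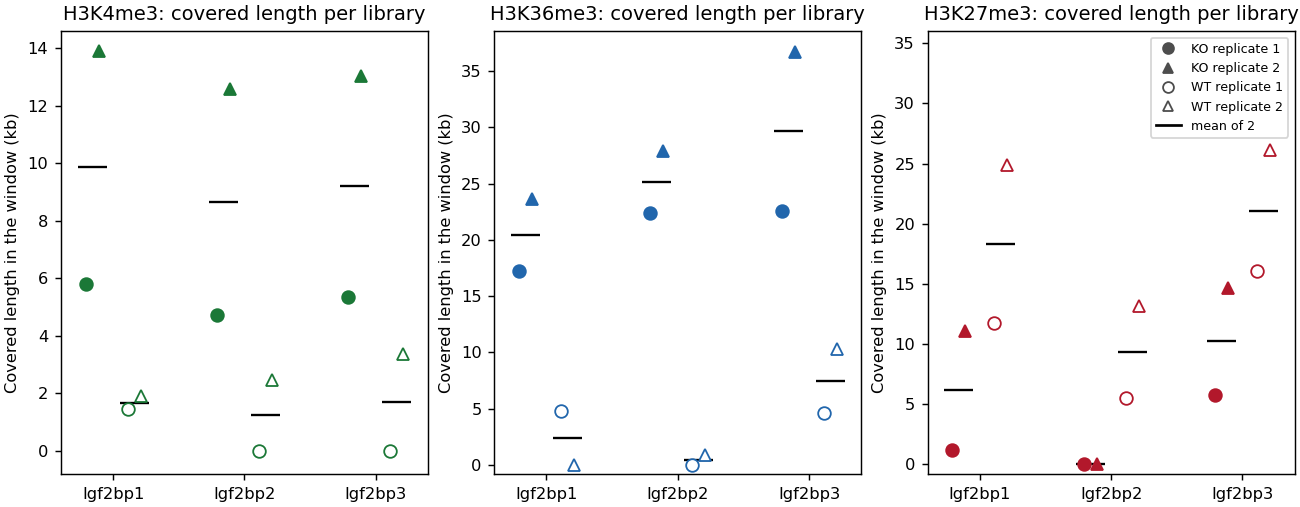
Covered length in kb of each mark in the Igf2bp1, Igf2bp2 and Igf2bp3 windows, 1 point per library (filled KO, open WT, circles replicate 1, triangles replicate 2), with lines at the mean of 2 libraries. Both KO points lie above both WT points for H3K4me3 and H3K36me3, and below them for H3K27me3, though at Igf2bp1 the H3K27me3 of KO replicate 2 (11113 bp) and WT replicate 1 (11746 bp) are close.

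H3K27me3, the Polycomb mark, ran the other way and was longest in the WT libraries at every locus. At Igf2bp2 neither KO library listed any H3K27me3, while WT replicates 1 and 2 had 5528 and 13152 bp. At Igf2bp3 the lengths were 5780 and 14681 bp in KO against 16040 and 26097 bp in WT. At Igf2bp1 they were 1216 and 11113 bp in KO against 11746 and 24848 bp in WT. Igf2bp2 was the only one of the 3 with no listed H3K27me3 in KO, and its WT mean was 9340.0 ± 5391.0 bp. Within each replicate number WT exceeded KO at all 3 loci, but KO replicate 2 was close to WT replicate 1 at Igf2bp1 and Igf2bp3. The means were 6164.5 ± 6998.2 and 18297.0 ± 9264.5 bp at Igf2bp1 (KO, then WT), and 10230.5 ± 6294.0 and 21068.5 ± 7111.4 bp at Igf2bp3 (SD, n = 2 each). Without WT replicate 2 the mean difference fell from -12132.5 to -5581.5 bp at Igf2bp1, from -9340.0 to -5528.0 bp at Igf2bp2 and from -10838.0 to -5809.5 bp at Igf2bp3. Without KO replicate 1 it was -7184.0 bp at Igf2bp1 and -6387.5 bp at Igf2bp3, and without WT replicate 1 it was -18683.5 bp at Igf2bp1. Leaving out a library cannot make groups overlap that did not overlap before, so nothing is read from their staying apart here. Tiles with longer H3K27me3 in both WT libraries made up 1.12%, 1.64% and 1.89% of all at 65, 120 and 150 kb. The groups overlapped at Igf2bp1 and Igf2bp3 when the windows were widened by 20 kb on each side, and at Igf2bp1 also with peaks of a score of at least 160. Scaled to the length of each list, the groups overlapped at both loci and the mean difference at Igf2bp3 turned to 40786.4 bp higher in KO, since the 5780 bp peak belonged to the short KO replicate 1 list.

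That Igf2bp3 peak stood out within KO replicate 1. Its H3K27me3 list had 706 peaks, and only 2 of those on chromosomes 1 to 19 and X, this peak included, were at least 5780 bp wide. Igf2bp3 thus kept a comparatively wide stretch of the Polycomb mark in the library that listed the least of it. In KO replicate 2 the Igf2bp3 peak was 15033 bp wide, which 34 peaks of that list reached, and in WT replicate 2 it was 26284 bp wide, which 30 reached. By width, Igf2bp3 was thus near the top of the H3K27me3 lists of both genotypes.

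The H3K27me3 left in KO was not spread evenly over the stretch that carried it in WT. At Igf2bp3, the part above the broad H3K4me3 region held 10960 bp in KO replicate 2 and also 10960 bp in WT replicate 2, that is, all of the window that was left there. Inside the H3K4me3 region the same libraries had 3721 and 9934 bp, and below it 0 and 5203 bp. The WT peak of replicate 2 ran from 49153904 to 49180187 and the KO peak from 49165320 to 49180352, both past the border of the window. Their high ends nearly met while the low ends were far apart. Replicate 1 had 5248 bp (KO) and 7817 bp (WT) above the region, 532 and 7419 bp inside it, and 0 and 804 bp below it. At Igf2bp1 the replicate 2 libraries had 5206 bp (KO) and 5245 bp (WT) above the region, 4483 and 8504 bp inside it, and 1424 and 11099 bp below it. Inside and below the region KO replicate 2 thus had less than WT replicate 2 at both loci. Above it these libraries had the same or nearly the same length within the window. WT filled all that was left at Igf2bp1, as both did at Igf2bp3, so a difference beyond the window's border does not show in these lengths. In replicate 1 of Igf2bp1 the KO library had 314 bp above the region and 902 bp inside it, against 4610 and 5885 bp in WT, so KO had less in both places.

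**Figure D3:**
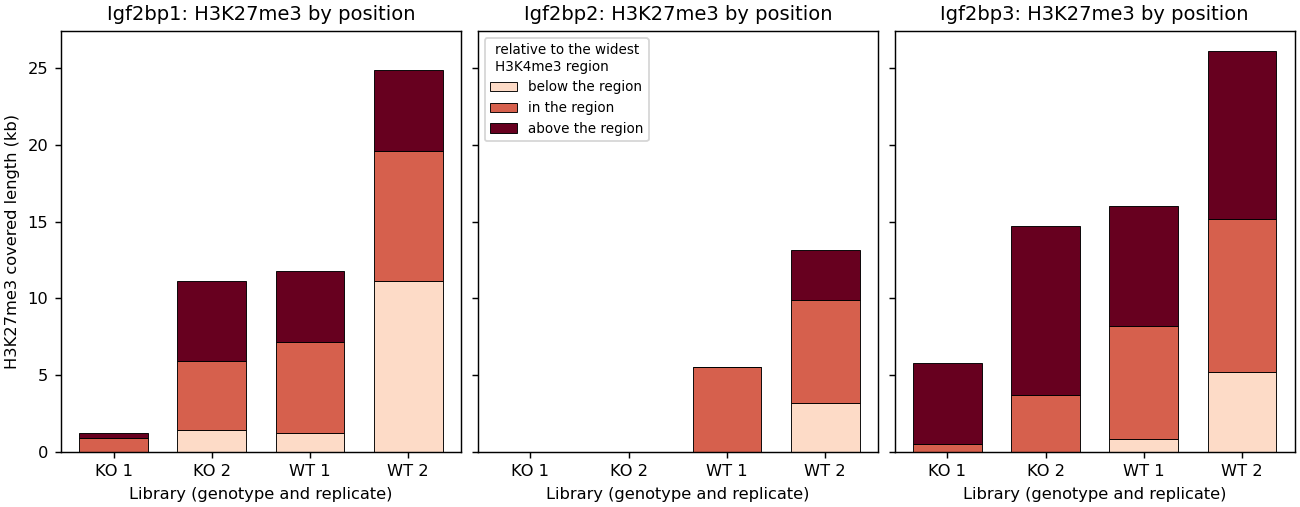
H3K27me3 covered length in kb per library at Igf2bp1, Igf2bp2 and Igf2bp3, stacked by its place below, in or above the widest H3K4me3 region in chromosome direction. In replicate 2 of Igf2bp1 and Igf2bp3 the dark part above the region fills all or nearly all that is left of the window (5206 and 5245 bp, 10960 and 10960 bp, KO then WT). The paler parts are shorter in KO.

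The share of WT H3K27me3 that was also covered in KO can be set beside the whole genome. In replicate 2 it was 44.7% at Igf2bp1, 0% at Igf2bp2 and 56.3% at Igf2bp3, against 41.0% over chromosomes 1 to 19 and X. In replicate 1 it was 10.4%, 0% and 36%, against 6.83%. By this measure Igf2bp1 and Igf2bp3 kept no smaller a share of the mark than the genome did, and Igf2bp2 kept none.

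KO H3K4me3 lay for the greater part where WT libraries listed H3K27me3, except in replicate 1 at Igf2bp1. In replicate 1, 42.8% of the KO H3K4me3 length at Igf2bp1, 91.7% at Igf2bp2 and 100% at Igf2bp3 fell within WT H3K27me3 peaks. In replicate 2 the shares were 70.6%, 64.5% and 85.8%. Over chromosomes 1 to 19 and X they were 0.723% and 4.79%. All 3 loci were far above the genome in both replicates, but they were chosen for marks of opposite direction, so nothing is read from this. Seen from the other mark, this shared length made up 21.2%, 78.3% and 33.4% of the WT H3K27me3 in replicate 1, and 39.5%, 61.8% and 43.0% in replicate 2. The genome values were 4.99% and 6.64%.

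**Figure D4:**
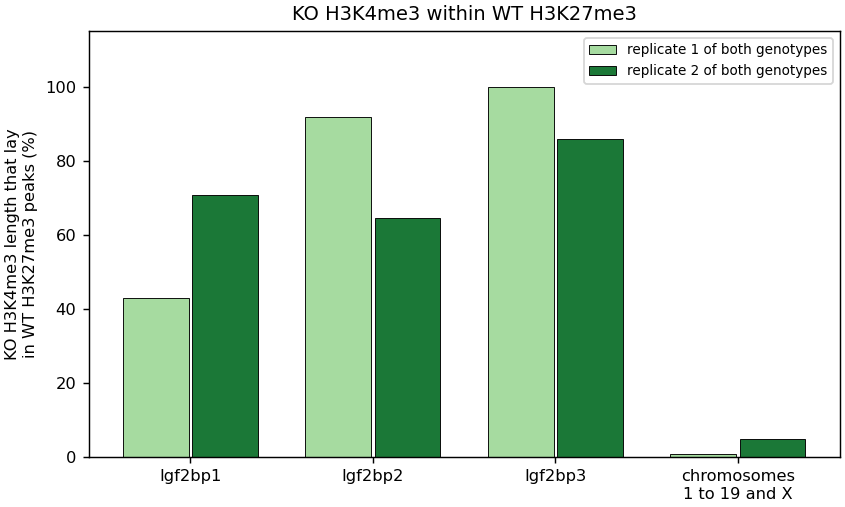
Percent of the KO H3K4me3 length that fell in WT H3K27me3 peaks of the same replicate number, at Igf2bp1, Igf2bp2, Igf2bp3 and over chromosomes 1 to 19 and X. The loci lie between 42.8% and 100%, and the genome at 0.723% and 4.79%.

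Within single libraries, both marks were listed together at some loci. In WT replicate 2 the short H3K4me3 peaks were embedded in H3K27me3, over 1156 bp (60.6% of H3K4me3) at Igf2bp1, 2467 bp (100%) at Igf2bp2 and 1836 bp (54.3%) at Igf2bp3. Over all of this library, 6.02% of the H3K4me3 length was in H3K27me3. In KO replicate 2 the marks shared 4483 bp (32.2%) at Igf2bp1, 4998 bp (38.3%) at Igf2bp3 and none at Igf2bp2, with 2.43% over the library. Such overlap is called bivalent when both marks sit on the same promoter, but in a population of cells they may also come from different cells or alleles. KO replicate 1 had 286 bp of overlap, all at Igf2bp3, and WT replicate 1 had none.

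H3K36me3 and H3K27me3 met at a single point. In KO replicate 2 they shared 379 bp at Igf2bp1, and no other library or locus had any overlap. That library had 8 H3K27me3 peaks with H3K36me3 among 17491 on chromosomes 1 to 19 and X (0.0457%), so the Igf2bp1 peak was an uncommon case. Across genotypes, 2844 bp of KO H3K36me3 (12%) at Igf2bp1 and 4339 bp (11.8%) at Igf2bp3 lay in WT H3K27me3 of replicate 2. In replicate 1 it was 0 bp at Igf2bp1 and 225 bp (0.996%) at Igf2bp3. At Igf2bp2 none did in either replicate, and its H3K36me3 block lay at the far end of the window.

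In these windows the difference lists held H3K4me3 and H3K36me3 peaks of KO only, and H3K27me3 peaks of WT only. For H3K4me3 the KO lists held 9 and 8 peaks and the WT lists 0 and 0. For H3K36me3 the KO lists held 28 and 35 and the WT lists 0 and 0. For H3K27me3 the KO lists held 0 and 0 and the WT lists 8 and 4. Over the whole lists the H3K4me3 difference peaks also leaned to KO, with 5687 and 6594 peaks against 1867 and 1334 in WT. Those of H3K27me3 leaned to WT, with 113 and 4056 in KO against 1422 and 5186 in WT. Those of H3K36me3 leaned the other way, with 2071 and 1011 in KO against 3301 and 3524 in WT. Of the 92 difference peaks in the windows, 78 (84.8%) matched an extract peak of their own library in both start and end, so both kinds of list largely rest on the same peaks. The other 14 all came from KO libraries, and the WT-higher H3K27me3 peaks were without exception also peaks against extract. Which library stands higher in a difference list rests on the reading of its control, while the covered lengths do not use it.

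Counted by merged region, 5 of 9 H3K4me3 regions held a KO difference peak in both replicates, against 10.8% of all H3K4me3 regions. They were 3 at Igf2bp1 and 1 each at Igf2bp2 and Igf2bp3. For H3K36me3 it was 17 of 32 regions, 2 at Igf2bp1, 8 at Igf2bp2 and 7 at Igf2bp3, against 0.668%. For H3K27me3 all 4 regions held a WT difference peak in both replicates, against 3.76%. These counts follow from the choice of the loci, and nothing further is read from them.

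All 3 marks together showed this pattern in few tiles. The loci were chosen for differences in these lists, and tiles without any peak were counted too, so nothing is read from the shares. Longer H3K4me3 and H3K36me3 in both KO libraries with longer H3K27me3 in both WT libraries occurred in 4 of 40566 tiles of 65 kb (0.00986%), 5 of 21978 tiles of 120 kb (0.0228%) and 6 of 17583 tiles of 150 kb (0.0341%). Of these, 2 at each size overlapped an Igf2bp window, Igf2bp1 and Igf2bp3 at 65 kb, and Igf2bp2 and Igf2bp3 at the other sizes. Tile borders cut through the windows, so a locus can fail in a tile and hold in its own window. Tiles with difference peaks of all marks in these directions in both replicates made up 0.0173%, 0.0410% and 0.0682%.

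In the 100 kb on either side of each window, the genotypes were not parted for H3K36me3 or for H3K27me3 in any of the 6 flanks. Some flanks could not part them, since no library listed H3K27me3 on either side of Igf2bp2 or H3K36me3 on the low-coordinate side of Igf2bp1. Over all 120 kb tiles, H3K36me3 was longer in both KO libraries in 0.851% and in both WT libraries in 11.5%. For H3K27me3 the shares were 0.355% and 1.64%, in the same order. No share was computed for 100 kb stretches. Most tiles do not part the genotypes, so nothing is read about how far the differences reach. H3K4me3 was longer in both KO libraries in 1 of 6, on the low-coordinate side of Igf2bp1, where KO had 3892 and 3202 bp against 2515 and 3075 bp in WT. Over all 120 kb tiles the share with longer H3K4me3 in both KO libraries was 6.13%. Both flanks of Igf2bp3 held KO difference peaks of H3K4me3 in both replicates, although their covered lengths overlapped. Of all single merged H3K4me3 regions 10.8% held such peaks in both replicates, and a flank can hold several regions. Next to Igf2bp2 no difference peak of any mark was listed on either side, and H3K36me3 was longer in WT within each replicate number. On the low-coordinate side it came to 22630 and 27711 bp in KO against 25232 and 36254 bp in WT. On the high-coordinate side of Igf2bp3, H3K27me3 came to 17469 bp in KO replicate 2, 1646 bp in WT replicate 2 and 0 bp in both replicate 1 libraries. There the order of the replicate 2 libraries was opposite to that within the Igf2bp3 window.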

How the data were processed

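The submitters' processing notes name Bowtie 0.12.7 and MACS, the latter with no version, and the genome build mm9. The authors deposited 24 peak lists, of which 12 are against whole-cell extract and 12 are difference lists, each for a single library. Each deposited peak carries a score of at least 80 by a formula that was not stated, and the score was used only within a list. No source names what the difference lists were called against, which was taken to be the other genotype, and a control of the other replicate number or a pooled one cannot be told apart from it. Called peaks depend on depth and enrichment, which could not be corrected without read counts.

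Covered length is the number of bp in a window under at least 1 peak of a list against extract, with peaks cut at the window's borders. Regions are peaks of the 4 lists of a mark, merged where they overlapped or touched. Tiles cut chromosomes 1 to 19 and X into stretches of a window's length, and tiles without any peak were counted. A locus or tile was taken as higher in a genotype when both its libraries lay beyond both of the other. The code was tested on simulated data and run with Python 3.11.15. Figures were drawn with matplotlib 3.10.9. Named regions were those with a difference peak of 1 genotype in both replicates, otherwise the 2 longest per window and mark, and other regions were named after their values were seen. The members and lists were chosen with earlier results of these data known. Whole-cell extract samples were not analysed here.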

Additional observations from a re-analysis of the deposited data

How the results depend on the processing

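Depth is unknown, so lengths near a list's threshold could not be separated from low coverage. The 9 mean differences in covered length (KO minus WT) gave 75 values under other settings, and 1 of them changed direction. This was H3K27me3 at Igf2bp3, which turned from -10838.0 to 40786.4 bp when each list was scaled to the mean list length. The values with 1 library left out could not change direction, because the genotypes did not overlap in any of the 9 to begin with. They show only how the size of a difference depended on single libraries. The KO replicate 1 list is the shortest, so this scaling multiplies its peaks. The same scaling moved H3K36me3 to 22164.8 bp at Igf2bp1 and 30432.1 bp at Igf2bp2, and H3K27me3 at Igf2bp2 to -14866.7 bp. A score of at least 160 moved H3K36me3 at Igf2bp2 to 20514.0 bp. Leaving out 1 library gave ranges of 4134.0 to 12221.0 bp (Igf2bp1), 3484.5 to 11368.5 bp (Igf2bp2) and 3664.0 to 11369.0 bp (Igf2bp3) for H3K4me3. The low ends came without KO replicate 2 and the high ends without KO replicate 1. The H3K36me3 ranges were 14822.0 to 21209.0, 21917.0 to 27449.0 and 15106.0 to 29234.0 bp. For H3K27me3 they were -18683.5 to -5581.5, -13152.0 to -5528.0 and -15866.5 to -5809.5 bp, the smallest losses being without WT replicate 2 and the largest without WT replicate 1. Without KO replicate 1 H3K27me3 was -7184.0 bp at Igf2bp1 and -6387.5 bp at Igf2bp3. The genotypes came to overlap for H3K27me3 at Igf2bp1 with a score of at least 160 (-11361.0 bp), with the window widened by 20 kb (-12595.0 bp) and with scaling (-11522.6 bp), and at Igf2bp3 with the wider window (-9464.5 bp) and with scaling. Joining peaks less than 1 kb apart moved nothing beyond the replicate spread. Leaving out the first 20 kb of the Igf2bp3 window was chosen after seeing the data and moved no difference beyond the replicate spread. No paired analysis was possible because no test was run on these values. The replicate numbers were used to set libraries side by side and to choose which KO and WT libraries were overlapped. They were also used in reading the control of the difference lists.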
